A study of Mus musculus with 36 samples.

Results

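Bone marrow-derived dendritic cells were exposed for 6 h to PAM, to HMW or to both, and open chromatin was profiled with ATAC-seq. In this assay a transposase cuts and tags accessible DNA, so that the count in a peak reflects how open the site was. The comparison asked what each ligand added to the other and at which loci the pair lay above or below both single ligands. Its members were chosen by sample title: 2 libraries with PAM, 2 with HMW and 2 with both, 6 of the 36 libraries in the series. The remaining 30 libraries include 2 without ligand (the control), 2 with PAM and LPS, 2 with LPS and HMW and 2 with all 3, which are used below where named. All groups share one background: marrow of female C57BL/6J mice aged 6 to 8 weeks, cultured in GM-CSF, with 50000 cells per library and no genetic change. The labels give neither the ligand doses nor the full names of PAM and HMW. They do not say whether the 2 libraries of a group came from separate mice or cultures. The p-values thus measure only the spread between libraries of a group, estimated over all 18 groups of the series. That spread may be technical.

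In common usage, which the labels do not state, PAM is a synthetic bacterial-type lipopeptide that is sensed at the cell surface by TLR2 with TLR1 or TLR6, and HMW is long poly(I:C), a mimic of viral double-stranded RNA that is sensed by TLR3 in endosomes and by MDA5 in the cytosol. TLR2 signals through the adaptor MyD88 to NF-kappaB and AP-1, which drive inflammatory cytokine genes. TLR3 signals through the adaptor TRIF, and MDA5 through MAVS, to IRF3 and the type I interferon genes. Secreted interferon then activates STAT and IRF factors, which bind interferon-stimulated response elements at antiviral genes. Dendritic cells carry both arms and respond by switching on cytokine, costimulation and antigen-presentation genes.

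The promoter windows of 4 genes that stand for these 2 arms are printed first, because the accessibility of the peaks that cover them is given below. Each is the 250 bases before the gene's listed start, written 5′ to 3′ on the gene's strand, from RefSeq on GRCm38.p6. Capitals mark matches, on either strand, to the interferon-stimulated response element (GAAA, any 2 bases, GAAA), to NF-kappaB letters (GGGAA, any 3 bases, CC) or to AP-1 letters (TGANTCA). Cxcl10 lies at chr5:92348890-92349139 (minus strand), Isg15 at chr4:156200819-156201068 (minus), Ifit1 at chr19:34640639-34640888 (plus) and Il6 at chr5:30012864-30013113 (plus).
Cxcl10: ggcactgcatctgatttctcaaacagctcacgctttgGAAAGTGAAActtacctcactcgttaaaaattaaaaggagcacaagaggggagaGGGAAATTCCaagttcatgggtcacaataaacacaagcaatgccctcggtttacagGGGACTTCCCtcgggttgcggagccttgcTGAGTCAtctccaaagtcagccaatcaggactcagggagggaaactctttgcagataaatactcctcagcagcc
Isg15: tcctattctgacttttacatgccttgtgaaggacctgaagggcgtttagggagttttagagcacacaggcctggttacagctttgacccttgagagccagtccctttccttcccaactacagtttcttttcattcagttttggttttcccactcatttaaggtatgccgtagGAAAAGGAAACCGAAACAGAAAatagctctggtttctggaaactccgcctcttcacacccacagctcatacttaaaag
Ifit1: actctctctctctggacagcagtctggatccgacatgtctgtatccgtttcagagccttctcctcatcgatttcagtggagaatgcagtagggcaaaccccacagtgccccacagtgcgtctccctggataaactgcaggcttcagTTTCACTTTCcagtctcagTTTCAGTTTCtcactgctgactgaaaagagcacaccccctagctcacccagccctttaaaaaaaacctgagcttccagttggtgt
Il6: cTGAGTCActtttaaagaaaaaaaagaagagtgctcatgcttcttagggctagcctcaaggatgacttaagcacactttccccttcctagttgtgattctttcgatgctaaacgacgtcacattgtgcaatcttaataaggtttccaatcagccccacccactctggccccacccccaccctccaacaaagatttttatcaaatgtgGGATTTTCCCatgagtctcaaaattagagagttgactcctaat

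Cxcl10, a chemokine gene induced by interferon and by NF-kappaB, held 1 interferon element beginning 213 bases before the start, NF-kappaB matches at 159 and 103 bases and an AP-1 match at 74 bases. Isg15, which encodes a ubiquitin-like antiviral modifier, held 3 interferon-element matches that overlap one another, at 78, 72 and 66 bases. Ifit1, whose protein binds foreign RNA, held 2, at 104 and 85 bases on the opposite strand. Il6, which encodes interleukin 6, held an AP-1 match at 249 bases and an NF-kappaB match at 43 bases, and no interferon-element match in this window. A match is a description of letters and not a measured binding site.

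Over all classes of peak, the motif shares of the promoter windows differed most for the interferon element. The element was found in 2.79% of the 14317 windows that lie under any tested peak. Under peaks called higher in the pair than in PAM it was found in 23.3% of 120 windows, and under peaks called lower in 0.935% of 214. Under peaks called higher in the pair than in HMW the share was 4.48% of 201 windows, and under peaks called lower 2.87% of 627. The NF-kappaB letters were in 6.13% of all windows under peaks, 9.17% of those above PAM and 13.4% of those above HMW. The AP-1 letters were in 4.88%, 14.2% and 13.9% of the same sets. The letters GAGGAAGT, for the myeloid factor PU.1, were in 2.95%, 4.17% and 6.47%. These shares are descriptions without a test, and the letters of the 4 motifs can overlap.

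**Figure D1:**
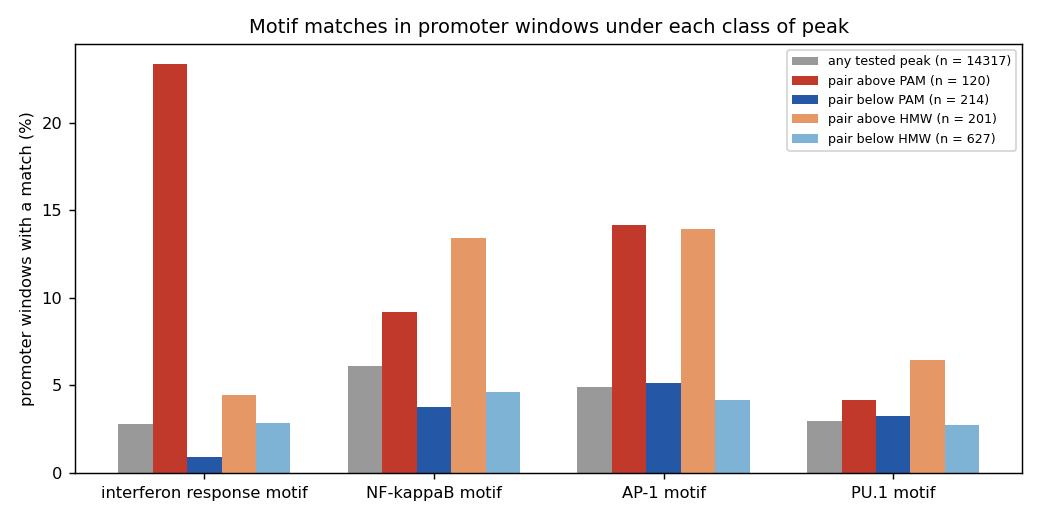
Share of promoter windows with at least 1 match (vertical axis, %) for 4 motifs, with 1 bar for each class of peak that covers the window. The interferon-element bar reaches 23.3% for peaks where the pair lay above PAM, against 2.79% for windows under any tested peak.

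Depth in the 6 libraries was 24870314 to 35622043 counts. The mitochondrial genome took 48.5% to 53.4% of these and left 11597648 to 17084761. In the control it was 60.1% to 61.9%, so in every comparison with the control the mitochondrial share moved with the stimulation, and its part in the result was not tested. Replicate libraries correlated at r = 0.938 (PAM), 0.940 (HMW) and 0.948 (both) in log2 CPM (counts scaled to library size) across peaks, which are not independent replicates. All 8 dendritic cell marker genes (Itgax, Flt3, Zbtb46, H2-Aa, H2-Ab1, Cd74, Ciita, Csf2ra) had a peak within 1 kb, with a summed level of 125.8 to 153.3 CPM over the 6 libraries. All 5 macrophage markers had one too, at 124.5 to 151.4 CPM in sum. The sums were lower in the pair libraries (125.8 and 133.8 CPM for dendritic cells, 124.5 and 130.5 for macrophages) than in the 4 single-ligand libraries (140.9 to 153.3 and 131.2 to 151.4). Peaks were found at 2 of 5 neutrophil markers (none at Ly6g, Elane or Mpo), with 13.6 and 10.0 CPM in sum with HMW, 15.9 and 17.5 with both and 19.6 and 21.2 with PAM. Among these 6 libraries the neutrophil sum was lowest with HMW, as were the summed levels of the inflammatory and NF-kappaB lists described below. Most of it came from S100a8. The S100a9 peak had 2.37 and 1.44 CPM with PAM, 1.84 and 1.38 with HMW and 0.987 and 1.52 with both. Without ligand the neutrophil sum was 23.1 and 19.2 CPM. The inflammatory list summed to 730 and 729 CPM without ligand and to 992 and 995 with HMW. The part of the neutrophil sum in those results was not tested. Peaks were also found at 2 of 4 B cell markers (9.54 and 8.20 CPM with both, 10.5 to 14.9 with a single ligand), 1 of 3 erythroid and 2 of 3 stromal markers, and 0 of 4 T and NK cell and 0 of 3 mast cell and basophil markers. In bulk libraries, fewer cells with an open site and less opening per cell cannot be told apart.

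The pair differed from PAM alone at 3182 peaks (2.66%) and from HMW alone at 9022 (7.55%). Of 119464 tested peaks, 2026 (1.7%) were called higher in the pair than in PAM and 1156 (0.968%) lower, where a call is an adjusted p-value under 0.05 in edgeR's quasi-likelihood test. Against HMW, 6305 (5.28%) were called higher in the pair and 2717 (2.27%) lower. The median log2 difference was 1.27 for the peaks above PAM and -0.74 for those below, and 1.20 and -0.89 for those above and below HMW. The counts depended on single libraries. The total of 3182 against PAM was 1817 without PAM replicate 1, 1196 without PAM replicate 2, 1210 without PH replicate 1 and 1588 without PH replicate 2, where PH is the pair. The total of 9022 against HMW was 4505 without HMW replicate 1, 4837 without HMW replicate 2, 4929 without PH replicate 1 and 5622 without PH replicate 2.

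Both rules together gave 402 peaks (0.337%) above both singles and 203 (0.17%) below both. A further 47 (0.0393%) were called above PAM and below HMW, and 64 (0.0536%) below PAM and above HMW, 111 (0.0929%) in all. By levels alone, without a test, both pair libraries lay above all 4 single-ligand libraries at 9903 peaks (8.29%) and below them at 11044 (9.24%). The 402 had median log2 differences of 1.09 from PAM and 1.21 from HMW, and 183 of them were at least 2-fold higher in each. Their median level was 1.80 CPM without ligand, 4.05 with PAM, 3.55 with HMW and 8.39 with both. The 203 went the other way, from 15.6 CPM without ligand to 10.9 with PAM, 10.6 with HMW and 6.08 with both. Here the medians follow from the rule that chose the peaks and are given as a description. Leaving out 1 library at a time gave 148 to 281 above both (196 and 202 without PAM replicates 1 and 2, 231 and 281 without HMW replicates 1 and 2, 148 and 240 without PH replicates 1 and 2). It gave 65 to 113 below both (101 and 74, 82 and 113, 65 and 91 in the same order).

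**Figure D2:**
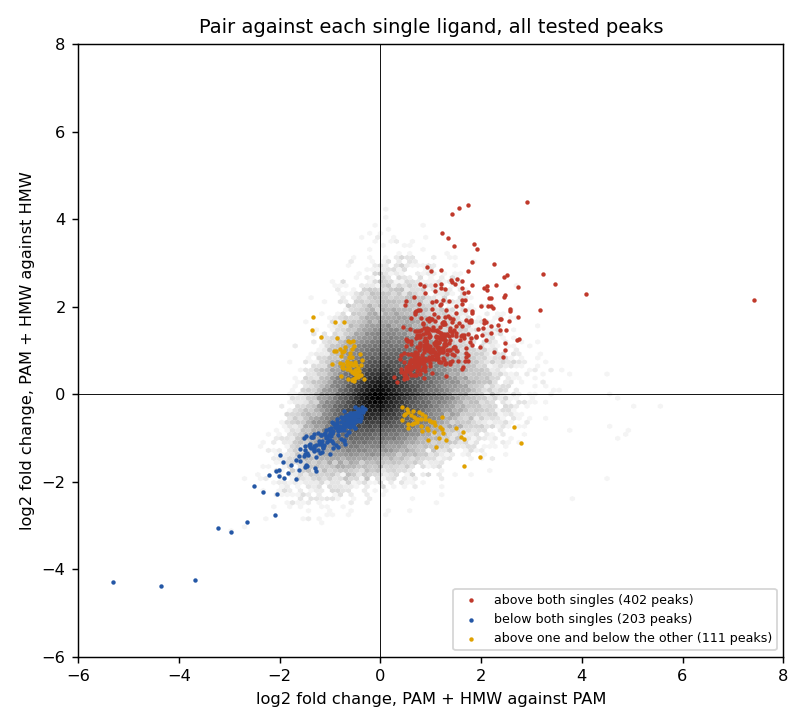
Each tested peak's log2 fold change of the pair against PAM (horizontal) and against HMW (vertical), with the density of all peaks in grey. The 402 peaks called above both singles are red, the 203 below both are blue, and the 111 called above one single and below the other are yellow.

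Peaks called higher with the second ligand lay mostly away from gene starts. Of all tested peaks 12.6% lay within 1 kb of a gene start, against 6.96% of those above PAM, 4.77% of those above HMW and 3.73% of those above both. Of the peaks below PAM 16.9% lay there, of those below HMW 20.5% and of those below both 22.2%. These shares describe the sets, without a test.

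Antiviral gene loci were more accessible with the pair than with PAM alone. The interferon-induced antiviral list (37 genes, 306 peaks within 5 kb of a gene) had 78 peaks at 26 genes called higher than in PAM and 0 lower, with a median log2 difference of 0.82 over the list, against -0.0089 over all tested peaks. At an unadjusted p-value under 0.05 there were 147 higher and 1 lower (over all peaks 7.58% and 6.99%), and DESeq2 called 66 and 0 (2.57% and 1.64% of the 68509 peaks it gave an adjusted p). The count of 78 was 43 without PAM replicate 2, 51 without PH replicate 2 and 57 to 77 without another of the 6 libraries. Against HMW the same list had 9 peaks higher, 7 lower and a median log2 difference of -0.08 (3 to 9 higher and 1 to 7 lower with 1 library left out). The shares against HMW were 2.94% higher and 2.29% lower, beside 5.28% and 2.27% of all peaks. The genes with the most peaks above PAM were Oasl1 with 11, Cmpk2 with 9, Mx1 with 6, and Ifih1 and Ifi44 with 5 each. A named peak below kept its call against PAM or HMW when each of the 6 libraries was left out in turn, except where the text says that it was lost. Of 368 calls at list peaks, 114 kept it in all 6 of these fits. Peaks are given as "in" a gene where they overlap its span, since the annotation used gives no exons or introns. Counts of genes with a called peak, here and below, have no share over all genes beside them. A gene with more peaks has more chances of a call.

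The Ifit2 peak (chr19:34572687-34579247, in Ifit2, an RNA-binding antiviral protein, and near Ifit3) had 4.88 and 2.82 CPM with PAM, 27.2 and 35.7 with HMW, 31.8 and 29.0 with both and 8.85 and 5.02 without ligand. The pair overlapped HMW alone and lay far above PAM, at a log2 difference of 2.98 ± 0.16 (SE; adjusted p = 2.57e-39). The Rsad2 peak (chr12:26438731-26453446, in the gene for viperin, which blocks viral replication) had 31.4 and 34.7 CPM with PAM, 79.8 and 93.2 with HMW and 77.8 and 76.2 with both. The difference from PAM was 1.22 ± 0.09 (adjusted p = 9.78e-24), and both pair libraries were below both HMW libraries, without a call (-0.17 ± 0.09, adjusted p = 0.289).

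The Cxcl10 peak (chr5:92344162-92349984, overlapping Cxcl10 and Art3), which covers the promoter window printed above, had 25.6 and 20.3 CPM with PAM, 52.7 and 48.0 with HMW and 43.9 and 47.6 with both. The pair was above PAM by 1.00 ± 0.11 (adjusted p = 2.54e-13) and not called against HMW (-0.14 ± 0.10). At Isg15, the peak over the promoter window (chr4:156199569-156201664) had 12.5 and 12.1 CPM with PAM, 18.2 and 16.0 with HMW and 23.2 and 20.3 with both, 0.82 ± 0.14 above PAM (adjusted p = 7.76e-06). Its larger neighbour over Isg15 and Agrn (chr4:156195135-156199490) had 64.2 and 64.0, 96.0 and 92.2, and 92.8 and 99.1 CPM in the same order, 0.58 ± 0.09 above PAM (adjusted p = 8.18e-07). The Ifit1 promoter peak (chr19:34639806-34641558) moved least, from 14.1 and 12.6 CPM with PAM to 19.7 and 19.0 with both. Its call (0.53 ± 0.14, adjusted p = 0.0123) was lost without PAM replicate 2 (0.219), PH replicate 1 (0.125) or PH replicate 2 (0.0654).

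A pair of small peaks at Cmpk2, a mitochondrial nucleotide kinase gene next to Rsad2, were near the lower limit of detection with PAM. The peak in the gene (chr12:26478540-26479374) had 0.153 and 0 CPM with PAM, from 2 and 0 counts, and 2.48 and 3.02 with HMW and 2.11 and 1.85 with both. The peak 3021 bp from the gene (chr12:26482858-26483764) had 0.153 and 0.217 CPM with PAM, 2.03 and 1.72 with HMW and 3.42 and 1.91 with both. Both were called against PAM (adjusted p = 9.92e-07 and 2.12e-07). The peak 79866 bp from Fshr (chr17:89280541-89280877) had a like profile, with 0.153 and 0.144 CPM with PAM, 1.08 and 1.29 with HMW and 1.71 and 2.19 with both (adjusted p = 1.35e-04).

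Of the double-stranded RNA sensing genes, 3 of 14 (Ifih1, Dhx58 and Trim25) had a peak called higher than in PAM, and all 3 are on the antiviral list too. The list (128 peaks) had 7 peaks higher than in PAM and 0 lower, beside 1.7% and 0.968% of all peaks (32 and 5 at an unadjusted p-value under 0.05, 6 and 0 by DESeq2). The 7 became 2 without PAM replicate 2 and 3 without PH replicate 1. Of the 7, 5 lay at Ifih1, the gene for MDA5. The strongest, 3612 bp from the gene (chr2:62587194-62592006), had 9.0 and 10.8 CPM with PAM, 28.2 and 26.7 with HMW and 34.1 and 33.8 with both. Both pair libraries lay above both HMW libraries, but only the difference from PAM was called (1.78 ± 0.13, adjusted p = 2.89e-25, and 0.30 ± 0.12 from HMW, adjusted p = 0.0999). Against HMW the whole sensing list had 6 peaks higher (4.69%) and 5 lower (3.91%), beside 5.28% and 2.27% of all peaks. Irf7, which amplifies interferon production, had 24.9 and 21.5 CPM with PAM and 30.9 and 28.8 with both at its main peak, without a call (0.36 ± 0.12, adjusted p = 0.0781). The main Ifnb1 peak, 2490 bp from the interferon beta gene, had 7.48 and 5.85 CPM with PAM, 4.76 and 4.91 with HMW and 4.41 and 5.95 with both, and was not called against either. Of the 4 Ifnb1 peaks, 1 other, within 1 kb of an end of the gene, was called higher than in PAM. That call was lost without PAM replicate 1, PAM replicate 2 or PH replicate 1.

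Of 23 maturation, costimulation and migration genes, 7 had a peak called higher with the pair than with PAM, most of the peaks at Il15, Cd274 and Cd86. The list (195 peaks) had 19 peaks higher than in PAM and 1 lower, beside 1.7% and 0.968% of all peaks (41 and 10 at an unadjusted p-value under 0.05, 19 and 1 by DESeq2). Of the 19, 8 lay at Il15, 4 at Cd274 and 3 at Cd86. The 19 became 10 without PAM replicate 2, 11 without PH replicate 1 and 12 without PH replicate 2. Il15 encodes a cytokine that sustains T and NK cells. Its leading peak (chr8:82398463-82399331, in the gene) had 6.71 and 9.82 CPM with PAM, 17.0 and 17.0 with HMW and 22.6 and 21.2 with both, 1.4 ± 0.16 above PAM (adjusted p = 2.54e-12) and 0.37 ± 0.15 above HMW without a call (adjusted p = 0.109). Cd274, the gene for the checkpoint ligand PD-L1, has a peak 40 bp away (chr19:29388135-29391638) with 6.64 and 6.86 CPM with PAM, 17.3 and 14.3 with HMW and 17.5 and 17.2 with both (1.36 ± 0.16, adjusted p = 5.33e-11). Cd86, which encodes a costimulatory ligand of CD28, has one in the gene (chr16:36598027-36599081) with 6.41 and 4.98, 13.9 and 12.0, and 13.6 and 12.0 CPM in that order (1.16 ± 0.19, adjusted p = 2.05e-06). At both peaks the pair lay close to HMW. Another Cd86 peak was called above both singles. Its call against PAM was lost without PAM replicate 1, and that against HMW without HMW replicate 1. Irf2 had a small peak 4799 bp away (chr8:46734416-46734946) with 0.610 and 0.722 CPM with PAM, 1.78 and 3.27 with HMW and 3.16 and 3.03 with both (2.2 ± 0.41, adjusted p = 1.17e-04). The IRF and STAT list as a whole (139 peaks) had 3 higher than in PAM and 0 lower (13 and 6 at an unadjusted p-value under 0.05, 4 and 1 by DESeq2), a share near that of all peaks. The AP-1 and BATF list (140 peaks) had 2 and 0 (9 and 9, and 4 and 1 by DESeq2), and the antigen presentation list (166 peaks) 1 and 0 (8 and 12, and 1 and 0 by DESeq2). The single antigen presentation call, at Nlrc5, a regulator of MHC class I genes, was lost without PAM replicate 1 (adjusted p = 0.388) or PH replicate 1 (0.408), and so was the leading AP-1 call, 907 bp from Fam71a and near Atf3, without PAM replicate 1 (0.202) or PH replicate 2 (0.0981).

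Some list peaks were called lower with the pair than with PAM, beside a background of 0.968%. The Ifngr1 peak (chr10:19591122-19592604, in the interferon gamma receptor gene) had 47.4 and 54.5 CPM with PAM, 44.0 and 41.0 with HMW and 35.5 and 37.7 with both. Its difference from PAM of -0.48 ± 0.11 (adjusted p = 0.00169) was not called without PAM replicate 2 (0.145) or PH replicate 1 (0.0707). The Sqle peak (chr15:59314415-59315578, in a gene of cholesterol synthesis) had 48.8 and 51.4 CPM with PAM, 42.3 and 41.4 with HMW and 33.3 and 36.6 with both (-0.52 ± 0.11, adjusted p = 9.32e-04, and 0.0723 without PH replicate 1). Gfi1, a repressor of myeloid genes, went from 13.0 and 15.9 CPM with PAM to 8.42 and 8.43 with both, a call (-0.78 ± 0.20, adjusted p = 0.01) that was lost without PAM replicate 2 (0.23), PH replicate 1 (0.104) or PH replicate 2 (0.0956). The cholesterol list (109 peaks) had 0 peaks higher than in PAM and 2 lower (6 and 11 at an unadjusted p-value under 0.05, 0 and 2 by DESeq2). Among the lowest log2 values against PAM were those of small intergenic peaks nearest to Mc2r (chr18:68699590-68699883), Gdap2 (chr3:100269157-100269536) and Acvr2a (chr2:48400341-48400562), with 1.68 to 2.90 CPM with PAM and 0.197 to 0.562 with both. Each of these 3 calls was lost without PH replicate 1 (adjusted p = 0.279, 0.274 and 0.386). The call at Mc2r was also lost without PAM replicate 2 (0.225) or PH replicate 2 (0.116), that at Gdap2 without PAM replicate 1 (0.114) or PH replicate 2 (0.05), and that at Acvr2a without any of the 6 libraries (0.0501 to 0.386).

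Inflammatory gene loci were more accessible with the pair than with HMW alone. The inflammatory list (29 genes, 28 with a peak, 172 peaks) had 40 peaks at 22 genes called higher than in HMW and 0 lower, with a median log2 difference of 0.45, against -0.041 over all peaks. At an unadjusted p-value under 0.05 there were 66 higher and 2 lower (over all peaks 11% and 8.93%), and DESeq2 called 39 and 0 (5.99% and 1.87% of 103251). Ptgs2, which encodes cyclooxygenase-2, had 5 of these peaks, Il6 had 4, and Il1a, Il1b and Il1rn had 3 each. The neutrophil marker sum given above was also higher with the pair than with HMW, and its part in this count was not tested. Against PAM the same list had 20 peaks higher (11.6%) and 5 lower (2.91%), beside 1.7% and 0.968% of all peaks, with a median of 0.15. The 40 above HMW became 26 without HMW replicate 1 or HMW replicate 2. The 20 above PAM became 10 without PAM replicate 1 or PH replicate 1 and 13 without PAM replicate 2 or PH replicate 2.

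At the peaks with the largest differences from HMW, no difference from PAM alone was called. The Samd12 peak (chr15:53542645-53543567, in the gene) had 10.4 and 11.2 CPM with PAM, 0.254 and 0.172 with HMW, from 4 and 2 counts, and 10.0 and 9.61 with both, so the pair differed from HMW by 5.42 ± 0.44 (adjusted p = 1.49e-22) and from PAM by -0.14 ± 0.25. The intergenic peak 162006 bp from Ibtk (chr9:85524612-85525353) had 28.2 and 29.5 CPM with PAM, 1.33 and 0.345 with HMW and 28.6 and 28.4 with both (4.96 ± 0.26, adjusted p = 7.93e-43). Peaks near Dcn (chr10:97393123-97393579) and in Cwc27 (chr13:104812796-104813223) had 0.127 and 0.0862 CPM each with HMW, from 2 and 1 counts. With both ligands they had 3.36 and 4.94 CPM and 2.57 and 3.71 CPM.

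Some genes of the interferon response carried sites with higher levels under PAM than under HMW, and the pair lay near PAM. Usp18 encodes a protease that removes ISG15 and dampens interferon receptor signalling. A peak in it (chr6:121249901-121250599) had 13.6 and 10.3 CPM with PAM, 2.67 and 1.21 with HMW and 14.8 and 13.3 with both, 2.79 ± 0.26 above HMW (adjusted p = 3.34e-18). Ifnar2, a subunit of the type I interferon receptor, had 16.4 and 20.2 CPM with PAM, 4.95 and 5.08 with HMW and 18.6 and 19.6 with both at chr16:91402851-91403745 (1.93 ± 0.21, adjusted p = 1.8e-13). At both peaks the pair lay above both HMW libraries, and no difference from PAM was called.

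Of 17 NF-kappaB genes 8, and of 15 lipopeptide sensing genes 10, had a peak called higher with the pair than with HMW. The NF-kappaB list (173 peaks) had 25 peaks higher than in HMW and 4 lower, beside 5.28% and 2.27% of all peaks (17 to 25 higher with 1 library left out). Of the 25, 14 lay at Nfkb1, the gene for the p50 subunit, and the lower ones lay at Bcl3, Nfkbid and Nfkbie. Within 1 kb of a gene end the NF-kappaB list had 3 higher and 3 lower of 32 peaks. The lipopeptide sensing list (140 peaks) had 20 higher and 2 lower beside the same background, led by Irak3 with 6, Tab2 with 4 and Irak2 with 3, with the lower ones at Irak4 and Tlr4. Within 1 kb of a gene end it had 2 higher and 2 lower of 23 peaks. The 20 became 8 without HMW replicate 1, 12 without HMW replicate 2 and 13 without PH replicate 2. Tab2 encodes an adaptor of the kinase TAK1. Its peak (chr10:7942878-7943467) had 7.40 and 7.22 CPM with PAM, 0.762 and 1.81 with HMW and 8.03 and 6.63 with both (2.57 ± 0.31, adjusted p = 9.56e-12). At Tlr2 itself, 2839 bp from the gene (chr3:83844663-83845829), the values were 44.8 and 43.1 CPM with PAM, 28.7 and 25.1 with HMW and 38.6 and 39.4 with both (0.53 ± 0.12, adjusted p = 4.86e-04, and 0.056 without HMW replicate 2). Against PAM the sensing list had 0 peaks higher and 1 lower, beside 1.7% and 0.968% of all peaks (6 and 20 at an unadjusted p-value under 0.05, 0 and 1 by DESeq2).

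Single peaks at transcription factor, feedback and metabolic genes were also higher than with HMW. Batf, an AP-1 family factor, had 6.87 and 4.04 CPM with PAM, 1.78 and 0.431 with HMW and 6.64 and 7.81 with both at chr12:85703304-85703941 (2.60 ± 0.33, adjusted p = 5.06e-11). Pfkfb3, a regulator of glycolysis, had 31.4 and 34.9, 11.3 and 13.6, and 32.4 and 29.3 CPM in that order at chr2:11523699-11525367 (1.32 ± 0.14, adjusted p = 3.01e-14). Another site in Pfkfb3 (chr2:11496445-11497395) was lowest with PAM, at 10.1 and 12.9 CPM, against 18.5 and 17.6 with HMW, 21.4 and 17.3 with both and 27.2 and 24.4 without ligand. Its difference from PAM (0.75 ± 0.15, adjusted p = 6.67e-04) was not called without PAM replicate 1 (0.0938) or PH replicate 1 (0.101). Socs3, an inhibitor of cytokine signalling, had 43.7 and 41.7, 27.1 and 26.0, and 40.6 and 37.9 CPM at chr11:117967672-117970447 (0.56 ± 0.11, adjusted p = 8.01e-05). Traf3, an adaptor shared by TRIF and MAVS, had 9.23 and 11.6, 5.53 and 6.64, and 14.3 and 12.9 CPM at chr12:111181769-111182390 (1.17 ± 0.20, adjusted p = 2.1e-06). Tcf4, a dendritic cell lineage factor, had 26.2 and 20.7, 12.5 and 11.5, and 22.0 and 25.6 CPM at chr18:69592828-69593783 (0.98 ± 0.16, adjusted p = 1.38e-06). Over whole lists, beside the background of 5.28% higher and 2.27% lower, feedback inhibitors had 13 higher and 2 lower of 130 peaks, myeloid factors 14 and 8 of 287, glycolysis genes 6 and 7 of 149, and AP-1 and BATF factors 6 and 6 of 140. With 1 library left out the higher counts were 10 to 13, 8 to 14, 1 to 6 and 5 to 6 in that order.

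Some named calls of this kind rested on single libraries. The Il6 promoter peak (chr5:30012594-30013781), which covers the window printed above, had 19.9 and 20.7 CPM with PAM, 12.9 and 15.8 with HMW and 19.9 and 18.8 with both. It was called above HMW (0.44 ± 0.14, adjusted p = 0.0348) but not without HMW replicate 1 (0.449), PH replicate 1 (0.21) or PH replicate 2 (0.0844). The main Il10 peak, 508 bp from the gene of this anti-inflammatory cytokine, had 12.9 and 13.0 CPM with PAM, 7.69 and 9.39 with HMW and 13.0 and 14.4 with both (0.69 ± 0.18, adjusted p = 0.00367, and 0.177 without HMW replicate 1 and 0.0767 without PH replicate 2). The leading peak in Marchf1, whose ubiquitin ligase removes MHC class II from the surface, went from 14.9 and 10.7 CPM with HMW to 22.1 and 21.0 with both (0.74 ± 0.16, adjusted p = 4.3e-04, and 0.108 without HMW replicate 2).

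Other sites were lower with the pair than with HMW. The Tlr3 peak (chr8:45409780-45411094, in the gene) had 9.99 and 9.24 CPM with PAM, 19.9 and 16.1 with HMW and 13.0 and 12.1 with both. Its difference from HMW (-0.54 ± 0.16, adjusted p = 0.0177) was not called without HMW replicate 1 (0.368), PH replicate 1 (0.0668) or PH replicate 2 (0.162), nor by DESeq2 (0.0604). The intergenic peak 696460 bp from Kcnj3 (chr2:56294605-56295213) had 8.74 and 9.17 CPM without ligand, 1.22 and 1.16 with PAM, 2.99 and 5.34 with HMW and 0.724 and 0.337 with both (-2.96 ± 0.47, adjusted p = 2.8e-07). The small peak in Lemd2 (chr17:27195525-27195794) had 2.35 and 2.41 CPM with HMW and 0.197 and 0.169 with both (adjusted p = 2.43e-05). A further one 877 bp from Arhgap25 (chr6:87457297-87457667) had 1.84 and 1.90 CPM with HMW and 0.0658 and 0.393 with both (adjusted p = 0.00101, and 0.0912 without PH replicate 1). The antigen presentation list had 9 peaks lower than in HMW and 8 higher of 166, beside 2.27% lower and 5.28% higher over all peaks, so its higher share (4.82%) was under the background. The lower ones included 3 at Tapbp and 2 at Psmb10, which serve peptide loading and processing, and 7 of the higher ones lay at Marchf1. Without HMW replicate 1, HMW replicate 2, PH replicate 1 or PH replicate 2 the list had 2, 4, 2 and 3 lower and 2, 0, 3 and 3 higher.

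**Figure D3:**
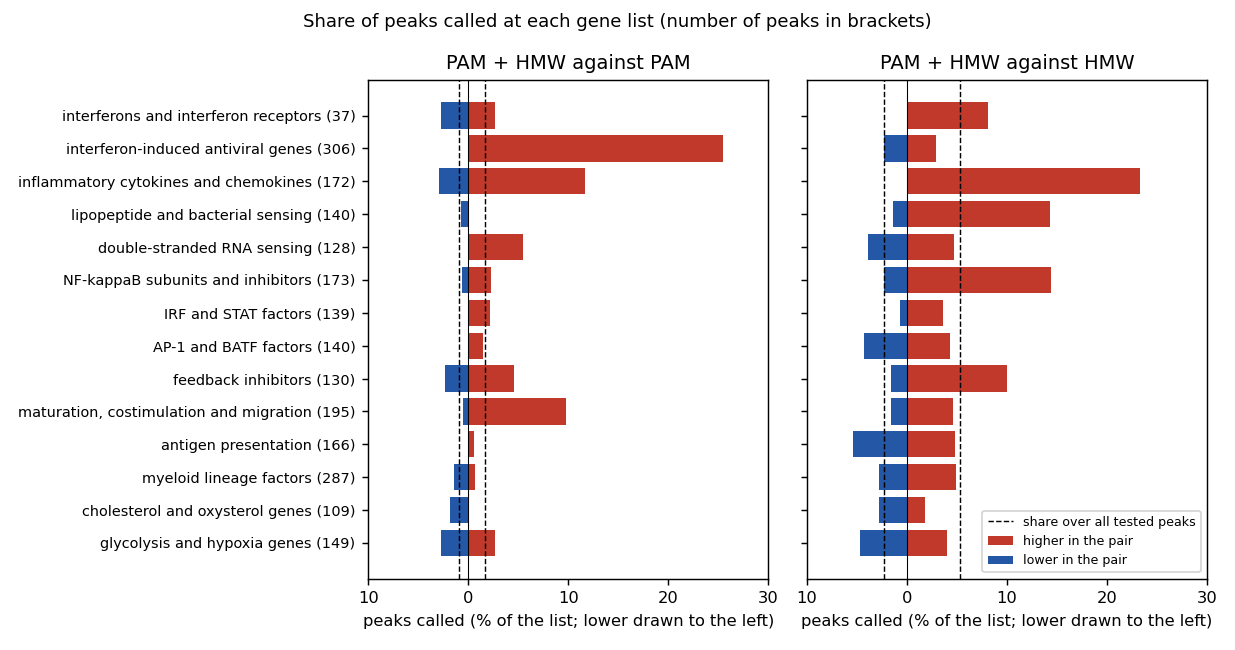
Percent of each gene list's peaks called higher (right of 0) or lower (left of 0) in the pair than in PAM (left panel) and than in HMW (right panel), with the share over all tested peaks as dashed lines. The antiviral list stands at 78 of 306 peaks above PAM and the inflammatory list at 40 of 172 above HMW.

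Above both single ligands, the clearest list peaks lay at Il6, Ccl5 and Il1rn. Ccl5, a chemokine that attracts T cells, has a peak over the gene and Heatr9 (chr11:83521831-83527834) with 5.14 and 4.44 CPM without ligand, 11.4 and 13.5 with PAM, 31.0 and 29.5 with HMW and 54.5 and 64.3 with both. The 4 groups did not overlap, and the pair was above PAM by 2.25 ± 0.12 (adjusted p = 5.76e-39) and above HMW by 0.97 ± 0.11 (adjusted p = 3.18e-13). Il1rn, which encodes the interleukin 1 receptor antagonist, rose at chr2:24350286-24353678 from 7.10 and 7.94 CPM with PAM and 10.4 and 10.7 with HMW to 20.4 and 22.0 with both. Its differences were 1.49 ± 0.15 (adjusted p = 1.03e-14) and 1.01 ± 0.15 (adjusted p = 1.48e-08).

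At Il6 the pair exceeded the singles behind the gene and not at its start. The peak 32 bp from the gene's far end (chr5:30020007-30021085) had 0.328 and 0.193 CPM without ligand, 2.44 and 2.02 with PAM, 0.381 and 0.345 with HMW and 6.97 and 7.86 with both. HMW alone was close to the control at this site, and the pair was 1.73 ± 0.33 above PAM (adjusted p = 1.33e-04) and 4.31 ± 0.44 above HMW (adjusted p = 8.03e-16). The next peak (chr5:30021251-30023211) had 2.29 and 4.98 CPM with PAM, 1.27 and 1.03 with HMW and 8.62 and 8.14 with both, 2.83 ± 0.32 above HMW (adjusted p = 8.32e-13). Its difference from PAM of 1.19 ± 0.27 (adjusted p = 0.00253) was not called without PAM replicate 1 (0.26). At the promoter peak, by contrast, the pair did not exceed PAM alone (-0.07 ± 0.14).

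Further sites above both lay at Nfkb1, Tnfaip3, Ptgs2 and Slamf1. At the 4 peaks described here the calls against HMW held with each of the 6 libraries left out, and those against PAM were lost without any 1 of 2 to 4 libraries. The Nfkb1 peak in the gene (chr3:135612721-135613615) had 4.96 and 5.34 CPM with PAM, 3.37 and 2.93 with HMW and 11.3 and 9.61 with both. It was 1.72 ± 0.25 above HMW (adjusted p = 1.55e-08) and 1.02 ± 0.23 above PAM (adjusted p = 0.00295, and 0.0623 without PAM replicate 1 and 0.0925 without PH replicate 1). Tnfaip3, the gene for A20, an inhibitor of NF-kappaB, has a peak 16 bp away (chr10:18998085-19000894) with 21.4 and 15.0, 8.26 and 8.19, and 24.8 and 30.3 CPM in the same order. It was 1.75 ± 0.16 above HMW (adjusted p = 2.07e-18) and 0.60 ± 0.15 above PAM (adjusted p = 0.00619, and 0.403 without PAM replicate 2 and 0.24 without PH replicate 2). The main Ptgs2 peak, over its promoter (chr1:150099401-150100484), had 16.2 and 16.6, 13.3 and 10.2, and 21.8 and 23.5 CPM. It was 0.94 ± 0.15 above HMW (adjusted p = 3.29e-07), and its call against PAM (0.47 ± 0.14, adjusted p = 0.0488) was lost without PAM replicate 1 (0.21), PAM replicate 2 (0.192), PH replicate 1 (0.13) or PH replicate 2 (0.285), and by DESeq2 (0.0591). Slamf1, which encodes a lymphocyte activation receptor, was likewise 1.27 ± 0.16 above HMW (adjusted p = 1.76e-11) at a peak 3847 bp away (chr1:171761684-171763284). Its call against PAM (0.50 ± 0.15, adjusted p = 0.0335) was lost without PAM replicate 1 (0.0591), PAM replicate 2 (0.347) or PH replicate 2 (0.405).

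Of the lists, the inflammatory genes had 11 of 172 peaks above both singles, against 0.337% of all peaks. The antiviral list had 4 of 306, NF-kappaB 4 of 173, feedback 4 of 130 and maturation 2 of 195. The IRF and STAT (139 peaks), AP-1 and BATF (140) and myeloid (287) lists had 1 each, and the other lists 0. Below both singles, the glycolysis list had 2 of 149 and the feedback list 1, against 0.17% of all peaks, and the other lists 0. The feedback list shares Tnfaip3 with the NF-kappaB list and Il1rn with the inflammatory list.

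The peaks with the largest gain over both singles, whatever their gene, were small sites with low levels under either single ligand. A pair of neighbouring intergenic peaks nearest to Mier3 were among them. The one 36236 bp away (chr13:111649284-111649837) had 0.305 and 0.144 CPM with PAM, from 4 and 2 counts, 0.826 and 0.776 with HMW and 3.42 and 4.44 with both (adjusted p = 1.04e-10 and 3.26e-06). The one 34498 bp away (chr13:111651137-111651575) had 0.458 and 0.578, 0.635 and 0.603, and 2.70 and 2.25 CPM, 2.23 ± 0.48 above PAM (adjusted p = 0.00111) and 1.97 ± 0.46 above HMW (adjusted p = 0.00124).

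A peak in Slc25a12, a mitochondrial carrier gene (chr2:71321537-71322054), had 0.687 and 1.16 CPM with PAM, 1.02 and 0.345 with HMW and 4.21 and 3.88 with both, and its call against PAM (2.11 ± 0.43, adjusted p = 5.92e-04) became 0.0578 without PAM replicate 1. Peaks in Plekhm3, Ptgs2 (chr1:150105111-150105788), Ppp3ca and Chd6 were also among the 8 with the largest gain, at 1.63 to 3.88 CPM with both and 0.289 to 0.763 CPM in the single-ligand libraries. Without PH replicate 1, the call against PAM was lost at these 4 (adjusted p = 0.239, 0.0764, 0.279 and 0.151), and without PAM replicate 2 as well (0.205, 0.315, 0.13 and 0.0621). At Ptgs2 it was also lost without PH replicate 2 (0.0901) and at Ppp3ca without PAM replicate 1 (0.167). The call against HMW was lost at Plekhm3 without HMW replicate 1 (0.183) or PH replicate 1 (0.137), at Ptgs2 without HMW replicate 2 (0.063), and at Ppp3ca and Chd6 without PH replicate 1 (0.0751 and 0.105).

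**Figure D4:**
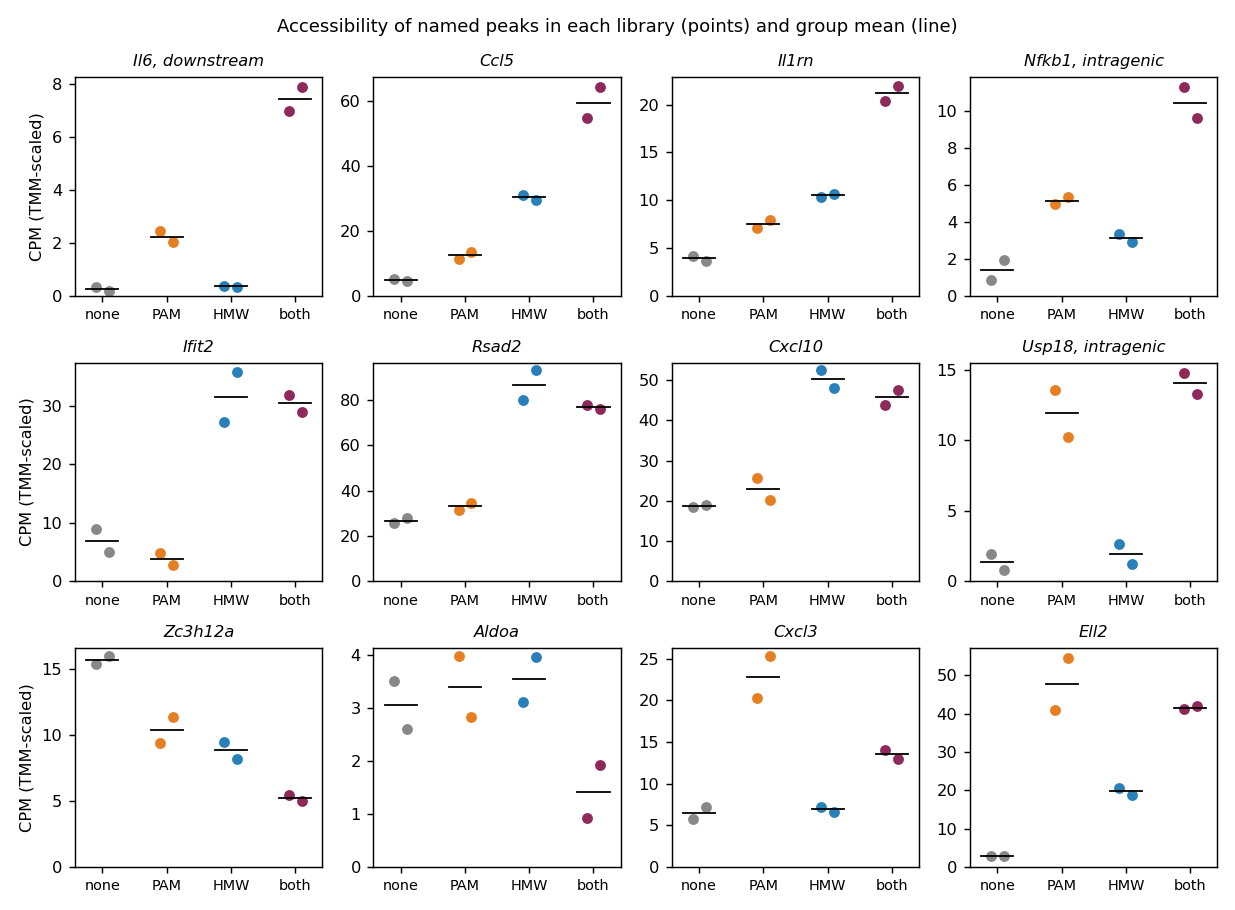
Accessibility in CPM (vertical axis) of 12 peaks without ligand, with PAM, with HMW and with both, each point 1 library and each line a group mean. In the top row both pair libraries lie above all 4 single-ligand libraries, and in the middle row the pair lies near 1 of the singles. The bottom row holds peaks called below both (Zc3h12a and Aldoa), between them (Cxcl3) and below the additive expectation (Ell2). The Aldoa call against PAM was lost in 9 of 16 refits, among them those without PAM replicate 1, PAM replicate 2, HMW replicate 2 or PH replicate 1. Its call against HMW was lost without HMW replicate 2 or PH replicate 1.

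Of the 203 peaks below both single ligands, 63 were at least 2-fold lower than in each. Those named here each lost a call when single libraries were left out. Zc3h12a, whose protein Regnase-1 degrades cytokine mRNA, was the only feedback-list gene below both. Its peak (chr4:125117690-125118744) went from 15.4 and 16.0 CPM without ligand to 9.38 and 11.3 with PAM, 9.46 and 8.19 with HMW and 5.46 and 5.00 with both. The pair libraries were the lowest of the 8. The difference from PAM of -0.99 ± 0.22 (adjusted p = 0.00253) was lost without PAM replicate 2 (0.114) or PH replicate 2 (0.0718). The difference from HMW of -0.76 ± 0.23 (adjusted p = 0.0183) was lost without HMW replicate 1 (0.218), PH replicate 1 (0.0751) or PH replicate 2 (0.159).

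Of the 8 peaks furthest below both, the one in Mink1 (chr11:70563572-70564000), a kinase gene, had 1.91 and 1.52 CPM with PAM, 2.79 and 2.67 with HMW and 0.461 and 0.337 with both. It kept its call against HMW (-2.76 ± 0.52, adjusted p = 2.24e-05) and lost that against PAM (-2.09 ± 0.54, adjusted p = 0.0124) without PAM replicate 1 (0.113), PH replicate 1 (0.0817) or PH replicate 2 (0.175). The most extreme value, 1190 bp from Crebzf (chr7:90441345-90441544), came from discordant replicates: 0.610 and 21.8 CPM with PAM, 9.91 and 0.862 with HMW and 0.329 and 0.225 with both. Without PAM replicate 2 its adjusted p against PAM was 0.712, and without HMW replicate 1 that against HMW was 0.662. Both calls were also lost without either pair library (0.174 to 0.222). The other 6 (near Mid1ip1, Zfp36l2 and Mis12 and in Tcte2, Smyd3 and Hps4) had 0.953 to 3.62 CPM with a single ligand and 0.197 to 0.843 with both. Without PH replicate 1 the calls were lost at all 6, against PAM (adjusted p from 0.23 to 0.376) and against HMW (0.144 to 0.403), and each peak also lost a call without other libraries.

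At some loci the pair lay between the singles. Cxcl3, a neutrophil-attracting chemokine gene, has a peak (chr5:90788093-90790032) with 20.3 and 25.3 CPM with PAM, 7.24 and 6.64 with HMW and 14.1 and 12.9 with both. It was 0.95 ± 0.21 above HMW (adjusted p = 4.88e-04). Its difference from PAM was -0.76 ± 0.19 (adjusted p = 0.00946), a call lost without PAM replicate 2 (0.261), PH replicate 1 (0.0698) or PH replicate 2 (0.145). Cd14, the co-receptor for lipopeptides and LPS, had 43.9 and 44.1 CPM with PAM, 22.0 and 22.1 with HMW and 29.4 and 31.9 with both (chr18:36725392-36727100). Its differences were -0.52 ± 0.12 from PAM (adjusted p = 0.00363, and 0.0541 without PAM replicate 2 and 0.118 without PH replicate 1) and 0.48 ± 0.13 from HMW (adjusted p = 0.00622, and 0.0816, 0.0625 and 0.107 without HMW replicate 1, HMW replicate 2 and PH replicate 2).

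In the other direction, at an Ifit3 peak (chr19:34588900-34591147) HMW gave 9.91 and 10.0 CPM, PAM 2.14 and 0.939, and the pair 4.67 and 5.06. The pair was 1.67 ± 0.30 above PAM (adjusted p = 4.48e-05, and 0.0752 without PAM replicate 2) and -1.03 ± 0.23 from HMW (adjusted p = 6.97e-04). A peak within 5 kb of Hk3, a hexokinase gene (chr13:54998645-55001331), had 2.06 and 2.96 CPM with PAM, 12.1 and 10.4 with HMW and 5.53 and 5.73 with both. It was 1.16 ± 0.25 above PAM (adjusted p = 0.00129, and 0.0992 without PAM replicate 1) and -1.01 ± 0.20 from HMW (adjusted p = 1.02e-04).

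The main peaks of Il12b, Il1b, Cxcl1, Nfkbia, Ccr7, Cd40 and Tnf and one of Nos2 were not called against PAM or against HMW. Other peaks of some of these genes were: 3 of Il1b and 1 each of Il12b, Nfkbia and Nos2 above HMW, and 3 of Nos2 above PAM. At Tnf (chr17:35197130-35203029) the values were 48.9 and 59.8 CPM with PAM, 39.2 and 40.0 with HMW and 48.6 and 44.3 with both. At Nfkbia, the gene for the NF-kappaB inhibitor IkappaB-alpha (chr12:55490029-55493524), all 8 libraries including the control lay between 83.5 and 97.0 CPM. At Ccr7, the receptor that guides dendritic cells to lymph nodes, replicates of PAM (39.1 and 25.9 CPM) and of the pair (34.5 and 48.0) spread as widely as the groups.

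Against the additive expectation on the log2 scale (pair - PAM - HMW + control), 563 peaks (0.471%) were called higher and 1293 (1.08%) lower, 1856 (1.55%) in all. The control libraries enter this sum, and their mitochondrial share differs as given above. The peaks called lower had a median log2 difference from the control of 1.95 with PAM, 1.28 with HMW and 1.64 with both. The peaks called higher had medians of -0.93, -0.68 and -0.61. The differences of the singles from the control are terms of the sum that chose these peaks. Their medians thus follow in part from the rule and are given as a description. Under scaling to total counts in place of TMM the median departure of all peaks was -0.2875, against -0.0118 with TMM. The calls became 144 higher and 3860 lower, so the share called higher went from 30.3% to 3.60%. The total of 1856 was 901 without PAM replicate 2, 1038 and 1099 without HMW replicates 1 and 2, and 992 without PH replicate 2.

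At the peaks with the lowest p-values, no difference of the pair from PAM alone was called. The peak in Ell2, a transcription elongation factor gene (chr13:75754043-75755548), had 2.84 and 2.70 CPM without ligand, 40.8 and 54.5 with PAM, 20.6 and 18.8 with HMW and 41.1 and 41.8 with both. It departed from additivity by -3.03 ± 0.23 (adjusted p = 2.95e-24). The peak 113740 bp from Mrpl39 (chr16:84602917-84604541) had 41.1 and 38.4, 30.0 and 28.5, and 45.1 and 41.3 CPM with PAM, HMW and both, and 7.10 and 7.24 without ligand (-1.91 ± 0.18, adjusted p = 2.58e-16). The peak in Rbbp8, a DNA end-resection gene (chr18:11727785-11728556), and the one 198304 bp from Serp2 (chr14:76755378-76756349) departed by -2.52 ± 0.25 (adjusted p = 1.46e-14) and -2.28 ± 0.23 (adjusted p = 3.63e-14). Among the inflammatory and feedback genes Tnf (-1.04 ± 0.15, adjusted p = 1.76e-07), Socs3 (-1.05 ± 0.17, adjusted p = 3.59e-06) and the Il6 promoter (-0.91 ± 0.22, adjusted p = 0.00779) departed downward. The peaks above both singles did so without a called departure at Il6 behind the gene (1.24 ± 0.95, adjusted p = 0.644), Ccl5 (-0.41 ± 0.21, adjusted p = 0.389) and Il1rn (0.06 ± 0.27, adjusted p = 0.958).

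The same additions were read in cells that also received LPS. These libraries (PAM and LPS, LPS and HMW, and all 3) are separate from the 6 that chose the peaks. Over the Cxcl10, Isg15, Ifit1 and Il6 promoters, mean CPM with PAM and LPS was 42.1, 22.4, 20.1 and 26.0. It was 23.0, 12.3, 13.3 and 20.3 with PAM, and 45.8, 21.7, 19.3 and 19.3 with PAM and HMW. Replicate 2 of PAM and LPS had 9593847 counts outside the mitochondrial genome, fewer than any of the 6. The part of starting level and depth in the counts below was not tested. Adding HMW to PAM and LPS changed 1 peak of 119464 (0.000837%), or 6075 (5.09%) at an unadjusted p-value under 0.05. At the 2026 peaks above PAM the median log2 difference on that addition was 0.019, with 53.0% above 0, and at the 1156 below PAM it was -0.043, with 41.7% above 0. Over all tested peaks it was 0.0009. Adding PAM to LPS and HMW changed 652 peaks (0.546%), 410 higher (0.343%) and 242 lower (0.203%). At the 6305 peaks above HMW the median was 0.165, with 69.4% above 0, 164 called higher and 4 lower, against a median of 0.0016 over all peaks. At the 2717 below HMW the median was -0.089, with 40.1% above 0, and the calls were 75 higher and 43 lower. At the 402 peaks above both singles, PAM added to LPS and HMW gave a median of 0.200 with 73.4% above 0, and HMW added to PAM and LPS gave -0.0038 with 49.3% above 0.

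The difference itself was tested, in contrasts that were added after the results were seen. The differences without LPS, by which peaks such as Ifit2 were chosen, enter these contrasts. The effect of HMW on PAM differed with and without LPS at 631 peaks (0.528%), and that of PAM on HMW at 3078 (2.58%). At Ifit2, HMW added 2.98 to PAM and 0.16 to PAM with LPS, and these additions differed by 2.82 ± 0.20 (adjusted p = 1.33e-25), while PAM with LPS and HMW lay below LPS with HMW (-0.74, adjusted p = 1.09e-05). At Rsad2 the last difference was -0.68 (adjusted p = 2.72e-08). At Tnfaip3, PAM added 1.75 to HMW and 1.27 to LPS with HMW (adjusted p = 7.85e-10), and the additions were not called different (0.47 ± 0.22, adjusted p = 0.298). At the Il6 peak behind the gene, HMW added 1.73 to PAM and 0.03 to PAM with LPS, a difference of 1.70 ± 0.45 (adjusted p = 0.0429).

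**Figure D5:**
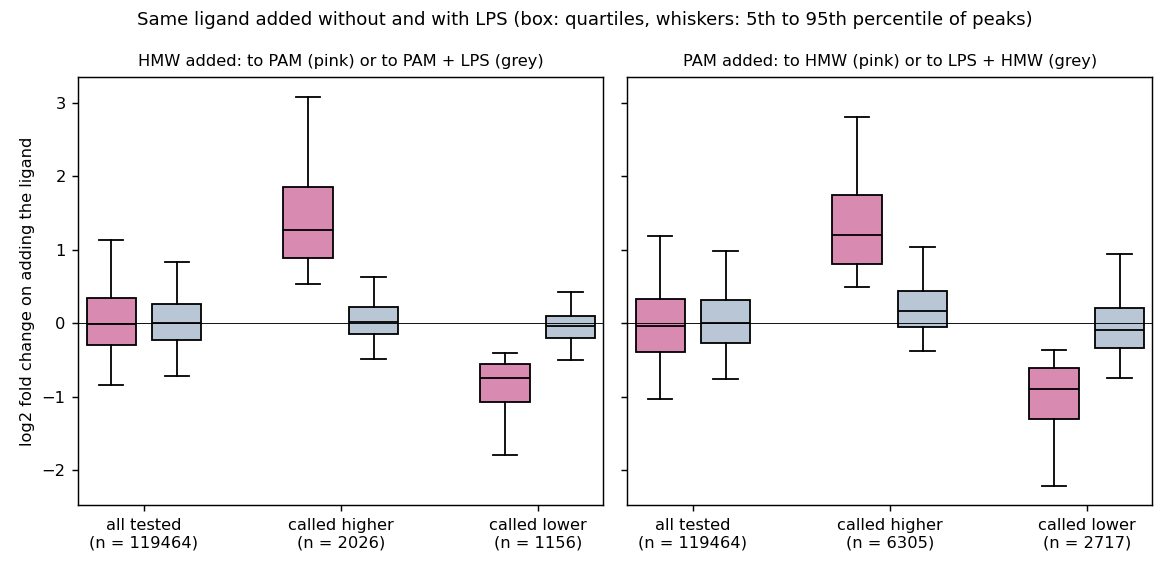
Log2 fold change on adding HMW (left panel) or PAM (right panel), without LPS (pink) and with LPS (grey), for all tested peaks and for those called without LPS, with boxes for quartiles and whiskers from the 5th to the 95th percentile. The pink boxes of called peaks are set by the call itself, while the grey ones come from other libraries and have medians of 0.019 and -0.043 on the left and 0.165 and -0.089 on the right.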

How the data were processed

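The authors deposited a table of raw, unnormalized counts for 119751 peaks in every library, and the position of each peak. Per the submitters' processing notes the build was mm10 and the tools included Bowtie2 2.2.9, MACS2 1.4, bedtools and featureCounts. Their roles, and the handling of duplicate reads, transposase offset and replicates in peak calling, are not given in the sources used here. Reads carry no molecular identifiers.

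The mitochondrial peak was left out. Peaks were filtered with filterByExpr (minimum count 10), which dropped 286, scaled by TMM and fitted with edgeR 4.0.16 under R 4.3.3 (quasi-likelihood, robust), with all 36 libraries in 1 fit of 18 groups (18 residual degrees of freedom). P-values were adjusted by Benjamini-Hochberg over peaks within each contrast, and 0.05 was the threshold. CPM are TMM-scaled. The method was tested on simulated counts. Alternatives used DESeq2 1.42.0 and limma 3.58.1 and are given in the closing section. A peak belongs to a gene within 5 kb. Named peaks are the 8 furthest above and below both singles, the 4 highest and 4 lowest against each single (mean CPM of at least 1), the 4 most significant departures from additivity, the leading peak of each list in each comparison and the main peak of 20 fixed genes. Other list peaks that are named (the Isg15 promoter peak, the second Il6 peak, Cd274, Cd86, Zc3h12a, Cxcl3, Ifit3 and Hk3) were chosen after their values were seen. Some results that the rule names are not reported here. The members and lists were chosen with earlier results of these data known. Precision is limited by 2 libraries per group and by depth, and interval and error statements cover the spread of counts between libraries only.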

Additional observations from a re-analysis of the deposited data

Results flagged for a closer look

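The effect of one ligand differed with and without the other at 1856 peaks, tested directly as a contrast in edgeR (pair - PAM - HMW + control). The 4 peaks with the lowest p-values in that test were in Ell2 (a departure of -3.03 on the log2 scale), 113740 bp from Mrpl39 (-1.91), in Rbbp8 (-2.52) and 198304 bp from Serp2 (-2.28). The effect of HMW on PAM differed with and without LPS at 631 peaks. The effect of PAM on HMW differed with and without LPS at 3078 peaks. Both contrasts with LPS were added after the results were seen.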

How the results depend on the processing

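Alternatives changed the fit (only these groups), the scaling, the low-count filter, the mitochondrial peak, the tool (DESeq2), the depth (thinning to the shallowest library) and the libraries. Of 153 called values at named peaks, refitted 2444 times, 2136 stayed called, 308 were lost and 0 changed sign, and 67 were called in every refit. With a replicate block the counts were 3141 against PAM, 8900 against HMW, 395 above both, 204 below both and 1859 for the departure from additivity. Deviations correlated at -0.0046 to -0.040 between same-numbered libraries. Counting noise at peaks with few counts lowers such a correlation, so these values cannot settle whether the replicate numbers pair the samples. Under total-count scaling, 128 peaks were below both, and 4004 departed from additivity (144 higher, 3860 lower). The median departure of all peaks was then -0.2875, against -0.0118 as reported. At an adjusted p under 0.01 in both comparisons 158 peaks were above both and 45 below both. Without any p, 9903 (8.29%) and 11044 (9.24%) had both pair libraries above or below all 4 single-ligand libraries. With peaks within 1 kb of a gene end only, the antiviral list (78 peaks) had 33 above PAM (42.3%) and 0 above HMW. The inflammatory list (64 peaks) had 11 (17.2%) and 25 (39.1%). Within 5 kb the shares were 25.5% and 2.94% for the antiviral list and 11.6% and 23.3% for the inflammatory list. Over all tested peaks they were 1.7% above PAM and 5.28% above HMW. Leaving out 1 library at a time gave 861 to 1987 peaks higher and 301 to 1138 lower against PAM (1196 to 3109 in all), 3383 to 6331 higher and 1122 to 2830 lower against HMW (4505 to 9137 in all), 148 to 281 above both, 65 to 113 below both, and 207 to 677 higher and 694 to 1201 lower than additive (901 to 1878 in all). Of the 402 peaks above both, 34.6% to 68.7% were still called with 1 library left out, and of the 203 below both, 20.2% to 53.7%. Sites under about 1 CPM rest on few counts, and small differences there were not detectable at this depth.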
